A study of Homo sapiens with 4 samples.

Results

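The genes described here control entry into mitosis and the start of anaphase. They are the cyclins *CCNA2*, *CCNB1* and *CCNB2*, the kinases *CDK1*, *PLK1*, *AURKA* and *WEE1*, the phosphatases *CDC25B* and *CDC25C*, and *CDC20*, an activator of the anaphase-promoting complex. The list was set by gene symbol, and all 10 genes were found among the 16811 genes of the deposited table. MCF12A is a non-tumorigenic line of human mammary epithelial cells, although the sample labels file it under breast cancer cell lines. RNA-seq was made from 2 libraries of wild-type MCF12A cells and 2 libraries of MCF12A cells labelled *C1orf132* KO, which carry a CRISPR/Cas9 deletion at the p2 promoter of this long non-coding RNA and are called edited cells below. Both groups were grown in the same medium with EGF, hydrocortisone, cholera toxin and insulin. Edited colonies came from sorted single cells, and the sources used here do not say which colony was sequenced, so the edited libraries may represent 1 clone. The labels call the replicates biological without naming separate cultures, so p-values measure the spread between these libraries. *C1orf132* itself was not analysed here, and each library was taken as its label names it.

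In dividing cells, *CDK1* pairs with cyclin A and then with cyclin B, and the paired kinase starts mitosis. WEE1 holds CDK1 inactive by adding a phosphate, and the CDC25 phosphatases remove it. AURKA switches on PLK1, which promotes CDC25 activity and marks WEE1 for destruction, and CDC20 then directs the anaphase-promoting complex to destroy cyclin B. Transcripts of most of these genes rise together in G2, under a shared promoter element called the cell cycle genes homology region (CHR) and nearby CCAAT boxes. The study described a G2/M arrest of the edited cells by flow cytometry, with fewer of them in S phase. The question here was where the transcripts of the mitotic entry genes stood in the same cell lines. Flow cytometry data were not analysed here.

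Of the 10 mitotic entry genes, 0 passed the test between edited and wild-type cells. The test was limma on log2(value + 1) over the 9590 genes whose mean value reached 10, with p-values adjusted after Benjamini and Hochberg, and a gene is called where its adjusted p is under 0.05. Among all tested genes, 7.09% were called (2.89% higher and 4.20% lower in edited cells). At an unadjusted p under 0.05, again 0 of 10 members and 32.3% of all tested genes passed. At the adjusted p under 0.001 that the study used for its RNA-seq, 0.0104% of all tested genes passed and 0 members. The study reported many more genes at this threshold from its own processing, so these results do not carry over to its analysis. The members' median log2 fold change was 0.082, and the median over all tested genes was 0.087. In bulk RNA, a different number of cells in G2 and mitosis cannot be told apart from a different amount of a transcript in each cell.

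The deposited values are normalized between libraries. They were taken as scaled for transcript length, which the low values bear out only in part, so an order of levels between genes rests on that reading. The libraries had totals of 1444645 to 1655436 on this scale. From low values of genes with a single transcript, 1 read on a transcript of 1 kb was, on the same reading, estimated to be worth 0.0895 to 0.109, which gives about 506 to 13736 reads per library for the members. Such estimates cover counting error only. Values of a group are given in the order replicate 1, replicate 2. Mean values over the 4 libraries ran from 27.3 for *CCNA2* and 29.1 for *CDC25C* up to 431 for *CCNB1*. *CDC20*, *CDK1* and *PLK1* lay between 293 and 308. Of these 3 genes *CDK1* was the highest in both wild-type libraries and the lowest in both edited libraries.

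*CCNB1*, which encodes cyclin B1, had the largest log2 difference of the 10 genes. It stood at 685 and 437 in edited cells against 389 and 215 in wild-type cells. Both edited libraries lay above both wild-type libraries, with 561 ± 175 (SD, n = 2) against 302 ± 123 (SD, n = 2). The log2 fold change was 0.92 (standard error 0.37, 95% interval -0.013 to 1.84), and the difference did not pass (adjusted p = 0.159, limma). Without wild-type replicate 2 the log2 fold change was 0.49, and without wild-type replicate 1 it was 1.34.

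*CDK1*, the catalytic partner of the cyclins, stood on the other side. It stood at 290 and 252 in edited cells against 359 and 323 in wild-type cells. Here both edited libraries lay below both wild-type libraries. The log2 fold change was -0.33 (standard error 0.21, 95% interval -0.85 to 0.18), which did not pass (adjusted p = 0.304, limma). With the library totals made equal it was -0.45, and with cyclic loess normalization -0.65 (adjusted p = 0.0702, limma).

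*CCNB1* and *CDK1* were the only members whose edited and wild-type libraries did not overlap. That is 2 of 10 genes, while 65.1% of all tested genes did not overlap between the groups (38.3% higher and 26.9% lower in edited cells). For the other 8 members the ranges of the groups overlapped.

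Their promoter sequences are shown here because these genes are known to share control elements. They are given 5′ to 3′ from RefSeq on GRCh38.p14, where 8 of the 10 members had a window of 250 bases before to 50 bases after a start site (*AURKA* and *WEE1* were the other two). Each ends at the base before the annotated start and lies on the plus strand: chr5:69166990-69167149 for *CCNB1*, chr15:59104986-59105145 for *CCNB2*, chr1:43358821-43358980 for *CDC20* and chr10:60778151-60778330 for the more upstream start of *CDK1*. Capitals mark CCAAT and the 2 CHR forms searched, TTTGAA and TTTAAA, on either strand.
CCNB1: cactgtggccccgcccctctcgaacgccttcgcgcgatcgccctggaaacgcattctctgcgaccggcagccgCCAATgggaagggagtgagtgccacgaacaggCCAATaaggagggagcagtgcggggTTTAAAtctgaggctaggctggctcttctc
CCNB2: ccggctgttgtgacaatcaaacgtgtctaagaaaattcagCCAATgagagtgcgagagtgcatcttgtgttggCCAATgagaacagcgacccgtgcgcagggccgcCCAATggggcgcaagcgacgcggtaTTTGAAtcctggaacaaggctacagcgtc
CDC20: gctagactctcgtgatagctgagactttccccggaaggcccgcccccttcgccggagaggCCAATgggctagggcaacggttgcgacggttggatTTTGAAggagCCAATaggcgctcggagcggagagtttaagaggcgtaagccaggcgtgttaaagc
CDK1: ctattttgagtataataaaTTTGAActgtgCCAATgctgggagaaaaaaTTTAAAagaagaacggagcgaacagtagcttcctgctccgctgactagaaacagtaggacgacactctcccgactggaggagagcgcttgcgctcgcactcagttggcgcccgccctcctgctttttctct

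Within these stretches, the CCAAT boxes of *CCNB1* begin 87 and 55 bases before the start and TTTAAA begins 30 bases before it. *CCNB2* has the same arrangement, with CCAAT at 120, 87 and 54 bases and TTTGAA at 29 bases before the start. *CDC20* carries CCAAT at 100 and 55 bases and TTTGAA at 65 bases before the start. In *CDK1* all 3 matches lie 131 to 161 bases before this start. Its second window, which begins farther downstream and is not printed, holds CCAAT on the other strand at 78 and 46 bases before its own start. TTTGAA lies there at 69 and 13 bases before that start, and once more on the other strand past it. The printed stretch therefore does not show the matches nearest to the downstream start. CCAAT together with TTTGAA or TTTAAA was found in at least 1 window of 6 of the 8 members, against 9.27% of all 35116 windows (34.6% held CCAAT, 15.2% TTTGAA and 12.2% TTTAAA). Members can have several windows, which raises their chance of a match, and a match of letters is not a measured site. Of these 6 members, *CCNB1*, *CCNB2*, *CDC20*, *CDC25C* and *PLK1* had log2 fold changes above 0 and *CDK1* one below 0. None of these differences passed the test, and the signs of *CCNB2* and *CDC25C* turned under other settings.

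**Figure D1:**
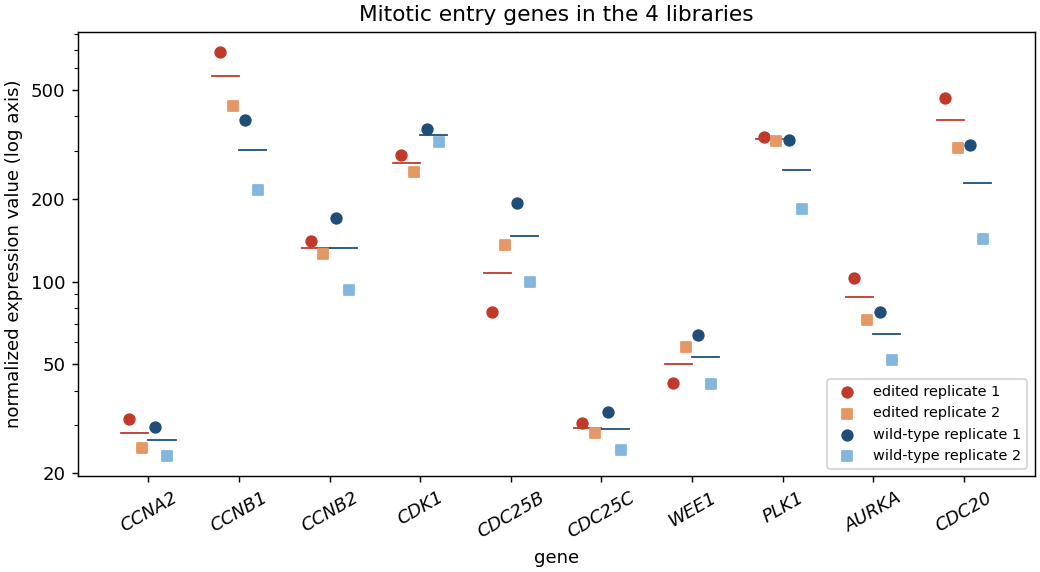
Normalized expression value (log axis) of each mitotic entry gene in the 4 libraries. Circles are replicate 1 and squares replicate 2 of edited (red and orange) and wild-type (dark and light blue) cells, and short lines are group means. *CCNB1* and *CDK1* are the genes whose groups do not overlap, and wild-type replicate 2 is the lowest library for 8 of 10 genes.

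Among the other cyclins, *CCNB2* (cyclin B2) was at 141 and 126 in edited against 171 and 93.6 in wild-type cells. The wild-type libraries lay on either side of both edited libraries, and the group means were 133 ± 10.6 and 132 ± 54.4 (SD, n = 2 each). Its log2 fold change was 0.072 (95% interval -0.72 to 0.86, adjusted p = 0.896, limma). *CCNA2*, which encodes cyclin A2 of S and G2 phase, was at 31.5 and 24.8 in edited against 29.5 and 23.2 in wild-type cells, a log2 fold change of 0.091 (95% interval -0.44 to 0.62, adjusted p = 0.797, limma). For these cyclins the sign turned under other settings: with equal library totals *CCNA2* was at -0.024 and *CCNB2* at -0.046.

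The regulators of CDK1 phosphorylation followed no common direction. *CDC25B*, the phosphatase known for starting CDK1 activation at the centrosome, was at 77.8 and 136 in edited against 193 and 99.3 in wild-type cells, so the replicates of each group lay far apart. Its log2 fold change was -0.42 (standard error 0.41, 95% interval -1.45 to 0.60, adjusted p = 0.509, limma). Leaving out wild-type replicate 1 gave 0.052, and leaving out replicate 2 gave -0.90. *CDC25C*, which completes the activation of CDK1 at mitosis, was at 30.5 and 28.1 in edited against 33.6 and 24.3 in wild-type cells. Both edited libraries fell between the wild-type ones, with a log2 fold change of 0.036 (95% interval -0.49 to 0.56, adjusted p = 0.923, limma). *WEE1*, the opposing kinase, was at 42.8 and 57.7 in edited against 64.0 and 42.4 in wild-type cells, and its log2 fold change was -0.067 (95% interval -0.74 to 0.60, adjusted p = 0.885, limma). Here edited replicate 1 and wild-type replicate 2 were nearly level, as the 2 lowest libraries.

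*PLK1*, the Polo-like kinase of mitotic entry, was at 335 and 325 in edited against 327 and 184 in wild-type cells. Only wild-type replicate 2 stood apart. The log2 fold change was 0.43 (95% interval -0.35 to 1.20, adjusted p = 0.381, limma), and without that library it was 0.014 (0.84 without wild-type replicate 1). *AURKA*, the Aurora kinase of centrosomes and spindle poles, was at 103 and 72.6 in edited against 77.3 and 51.8 in wild-type cells, with a log2 fold change of 0.44 (95% interval -0.26 to 1.14, adjusted p = 0.320, limma). Without wild-type replicate 2 it was 0.16, without wild-type replicate 1 0.73, without edited replicate 1 0.19 and without edited replicate 2 0.69. *CDC20* was at 466 and 307 in edited against 315 and 143 in wild-type cells. Edited replicate 2 fell just below wild-type replicate 1, so its groups overlapped. Its log2 fold change of 0.83 was the second largest among the members (standard error 0.43, 95% interval -0.23 to 1.89, adjusted p = 0.234, limma), and without wild-type replicate 2 it was 0.27 (1.39 without wild-type replicate 1).

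For *CCNA2*, *CCNB2*, *CDC25C*, *CDK1* and *WEE1*, the 95% interval of the main fit lay between -1 and 1, so a 2-fold difference in either direction lay outside it. The other 5 intervals reached past -1 or 1. Intervals under other normalizations are not given here, and with cyclic loess normalization the log2 fold change of *CDK1* was -0.65. The members had a median standard error of 0.30, against 0.22 over all tested genes. The smallest log2 difference of any called gene was 0.80 in size, and 19 of the 680 called genes had a smaller difference than *CCNB1*. These were 0.232% of the 8203 tested genes with a smaller difference than *CCNB1*, a set that takes in genes near 0. That share therefore does not tell how often differences as large as those of *CCNB1* and *CDC20* were called. The other members lay below the smallest called difference, so with 2 libraries a group differences of their size were not called. A p that misses the threshold does not show that the 2 groups have equal levels.

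**Figure D2:**
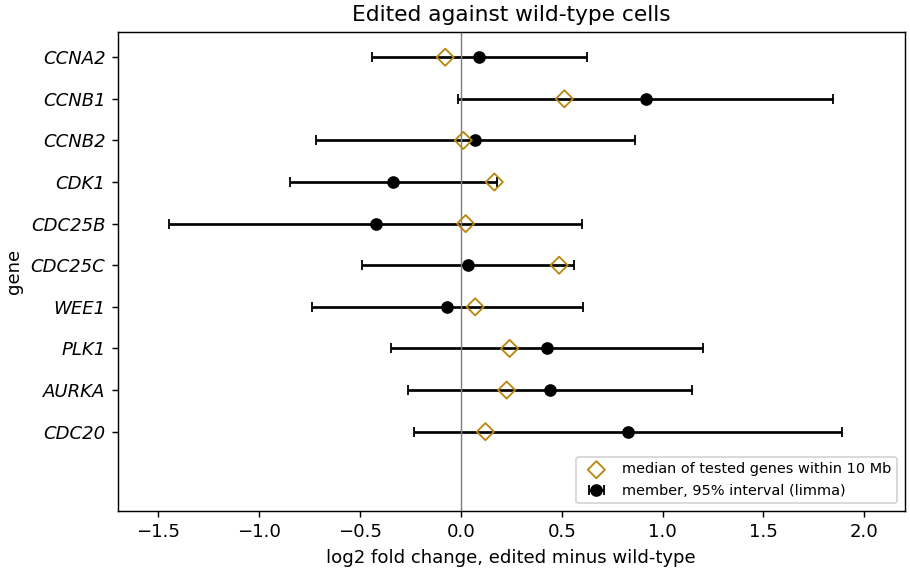
Log2 fold change (edited minus wild-type) of each member with its 95% interval from limma (black), and the median log2 fold change of tested genes within 10 Mb on either side (open diamonds). Every interval spans 0, and the neighbour medians of *CCNB1* and *CDC25C* are the highest at 0.51 and 0.49.

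The wild-type replicates lay apart in these genes. All 10 members were lower in wild-type replicate 2 than in wild-type replicate 1, with a median log2 difference of 0.70, while the median over all tested genes was 0.11. Wild-type replicate 2 was the lowest of the 4 libraries for 8 of 10 members and for 42.2% of all tested genes. In 8 of 10 members the wild-type replicates were farther apart than the group means. Even without any group difference, single libraries tend to lie farther apart than means of 2. The share over all tested genes was not computed. *CDC20* had the widest gap (1.13), and *CDK1* the narrowest (0.15). In edited cells 8 of 10 members were higher in replicate 1, and the median log2 difference between the edited replicates was 0.18 over all 10. *CDC25B* (-0.80) and *WEE1* (-0.42) went the other way.

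Without wild-type replicate 2, the members' median log2 fold change was -0.13 and 4 of 10 were positive. Without wild-type replicate 1 it was 0.38 and 9 of 10 were positive. None of the 10 genes was called when any 1 library was left out. The background of called genes itself fell to 4 genes and 16 genes without wild-type replicate 2 and 1.

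**Figure D3:**
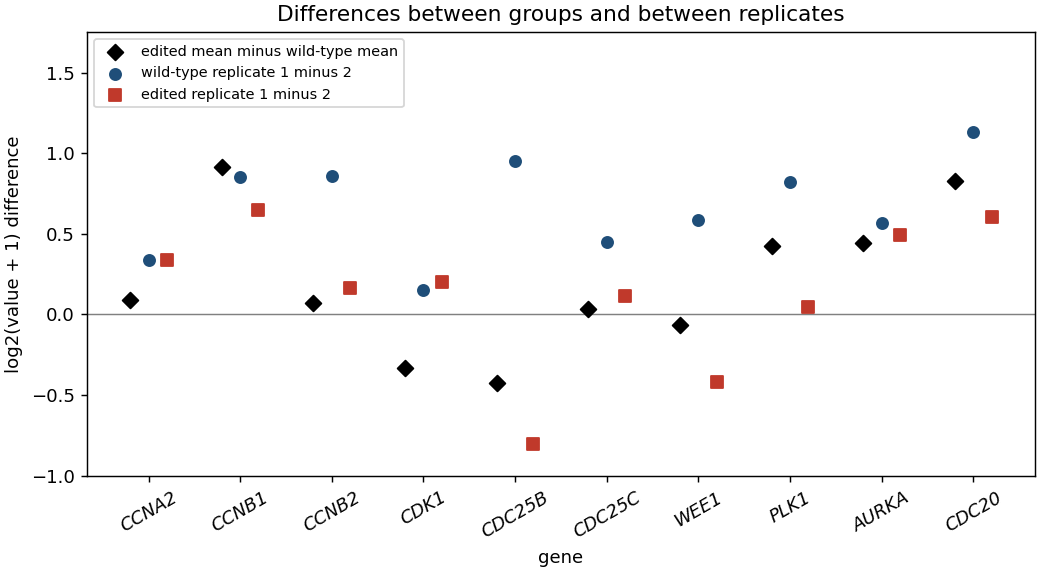
Differences in log2(value + 1) for each member between the group means (black diamonds), between wild-type replicates 1 and 2 (blue circles) and between edited replicates 1 and 2 (red squares). All 10 blue circles are above 0, and in 8 genes the blue circle is farther from 0 than the black diamond. The share of all tested genes in which this holds was not computed.

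Ratios of 2 genes within a library do not depend on how the library was scaled. These pairs were chosen after the values were seen, and with 2 libraries a group the smallest p of an exact two-sided permutation test is 0.333. *CCNB1* over *CDK1* was 2.36 and 1.73 in edited against 1.08 and 0.665 in wild-type cells. The edited libraries were both higher, with a mean log2 difference of 1.25 (exact permutation p = 0.333). *CCNB1* over *CCNB2* was 4.87 and 3.48 in edited against 2.28 and 2.30 in wild-type cells, again without overlap (0.85 on the log2 scale, exact permutation p = 0.333). The wild-type replicates, which differed in both cyclin B genes, were nearly level in this ratio.

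The ratio of *CCNA2* to *CDK1* was also higher in both edited libraries, at 0.109 and 0.0984 against 0.0823 and 0.0717 in wild-type cells. *CCNB2* over *CDK1* was 0.486 and 0.499 against 0.475 and 0.289, so wild-type replicate 1 came close to the edited libraries. Among the 9 ratios computed, these 4 cyclin ratios did not overlap between groups and the other 5 did. Of the 4, 3 share *CDK1* as denominator and are not separate observations. Of all other tested genes, 70.4% did not overlap as a ratio to *CDK1* and 37.0% as a ratio to *CCNB2*, and of all 45 pairs of members 29 did not, so a ratio without overlap was common. *CDC25B* over *WEE1* was 1.82 and 2.36 in edited and 3.01 and 2.34 in wild-type cells, and *CDC25C* over *WEE1* was 0.712 and 0.488 against 0.524 and 0.572. The balance of phosphatase to kinase transcripts thus overlapped between groups. *CDC20* over *CCNB1* was the steadiest, from 0.667 to 0.808 in all 4 libraries.

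**Figure D4:**
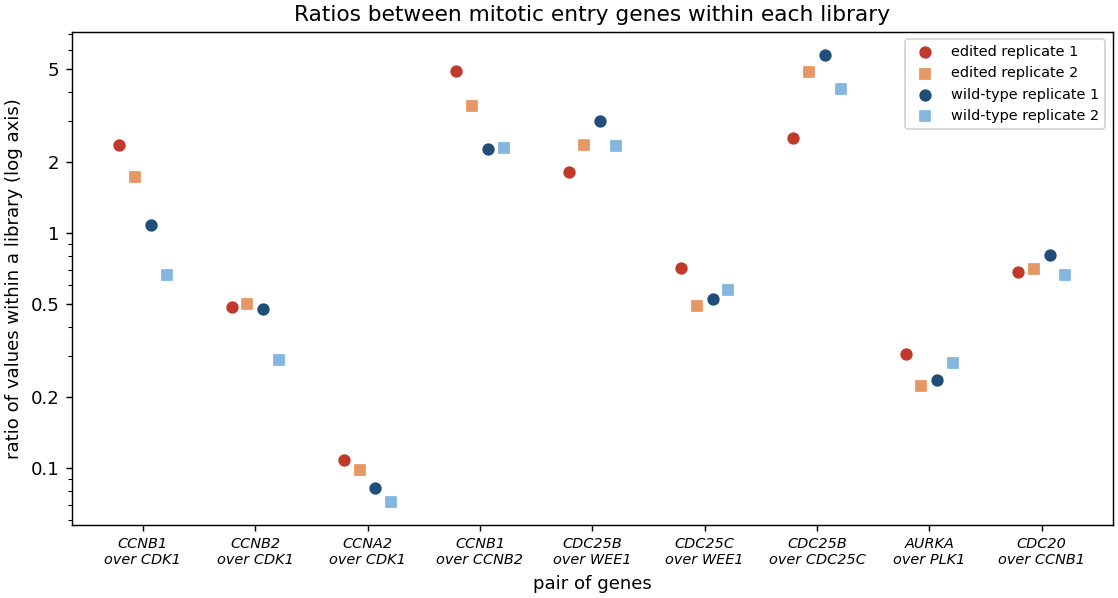
Ratio of the values of 2 genes within each library (log axis), with symbols for libraries as in the plot of values. *CCNB1* over *CDK1* is 1.73 and 2.36 in edited and 0.665 and 1.08 in wild-type cells, while *CDC25B* over *WEE1* and *CDC25C* over *WEE1* overlap.

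The members lie on 8 chromosomes, with *CDC25B* and *AURKA* at distant sites of chromosome 20. *CCNB1* (chromosome 5, 69167150 to 69178245) and *CDC25C* (chromosome 5, 138285265 to 138338355, both GRCh38.p14) also share a chromosome. The 51 tested genes within 10 Mb of *CCNB1* had a median log2 fold change of 0.51, and the 86 near *CDC25C* one of 0.49. *CCNB1* lay 0.40 above the median of its neighbours and *CDC25C* lay 0.45 below it. Near the other members this median was between -0.078 (*CCNA2*) and 0.24 (*PLK1*), and it was 0.17 near *CDK1*, which lay 0.50 below it. The part of the neighbourhood in the values of *CCNB1* was not tested.

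Other regulators of the CDK1 switch were taken from a list of 19 genes, of which 15 were tested. By limma 0 of the 15 were called (3 at an unadjusted p under 0.05), and their median log2 fold change was 0.22. The sign of this median turned without edited replicate 1 (-0.11), with quantile normalization (-0.021) and with cyclic loess normalization (-0.11), and without wild-type replicate 2 it was 0.071. *CCNH*, a subunit of the CDK-activating kinase, had the smallest p and was at 145 and 123 in edited against 88.0 and 65.3 in wild-type cells (a log2 fold change of 0.81, adjusted p = 0.0834, limma). *BORA*, an activator of AURKA, was at 13.2 and 11.5 against 19.5 and 16.9 (-0.52, adjusted p = 0.148, limma). Of the 4 genes under a mean value of 10, *CCNA1*, the cyclin A mainly known from the germ line, passed when tested among all 16811 genes. It was at 5.97 and 5.39 in edited against 1.12 and 0.969 in wild-type cells (a log2 fold change of 1.71, adjusted p = 0.0322, limma), and it was singled out after its values were seen. In that fit 795 of the 16811 genes were called. The wild-type values of *CCNA1* were near the 1 added before taking logs, so the size of its change depends on that setting.

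The anaphase-promoting complex and spindle checkpoint list, which holds the machinery that *CDC20* works with, had 26 tested genes. By limma 0 were called (4 at an unadjusted p under 0.05), with a median of 0.22, and 23 of 26 were positive against 56.7% of all tested genes. Wild-type replicate 2 was the lowest library for 18 of the 26 (69.2%, against 42.2% of all tested genes). The median was 0.13 without that library, 0.34 without wild-type replicate 1, 0.14 without edited replicate 1, 0.10 with equal library totals, 0.15 with quantile and 0.082 with cyclic loess normalization, and the part of wild-type replicate 2 in the positive share was not tested. *ANAPC15* was at 187 and 154 in edited against 99.7 and 82.2 in wild-type cells (a log2 fold change of 0.90, adjusted p = 0.0636, limma). *ANAPC7* was at 98.5 and 71.6 against 50.7 and 44.5 (0.81, adjusted p = 0.0805, limma). Both encode subunits of the complex, and 17 of the 26 genes did not overlap between the groups, a share of 65.4% beside the 65.1% of all tested genes.

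Transcription factors and partner proteins that act at CHR, CCAAT and E2F elements made a list of 21 genes. Of these 13 were tested and 0 called by limma (3 at an unadjusted p under 0.05), with a median of 0.35. This median was 0.16 without edited replicate 1 and also without wild-type replicate 2, 0.20 without wild-type replicate 1, 0.15 with cyclic loess normalization and 0.12 over the 8 genes with a mean of at least 50. *RBL2*, the p130 pocket protein of the complex that represses these promoters in resting cells, was at 32.3 and 40.5 in edited against 61.8 and 70.4 in wild-type cells (a log2 fold change of -0.85, adjusted p = 0.0595, limma). *E2F4*, its partner in that complex, was at 146 and 115 against 85.4 and 68.8 (0.75, adjusted p = 0.0898, limma).

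In the G2 checkpoint list, 22 of 27 genes were tested, and 0 were called higher and 1 lower (7 at an unadjusted p under 0.05, limma). The median was -0.013 (-0.092 without wild-type replicate 2 and -0.19 with cyclic loess normalization). The gene called was *BTG2*, a p53 target that slows proliferation, at 34.8 and 28.2 in edited against 58.0 and 70.9 in wild-type cells. It fell by 1.01 on the log2 scale (standard error 0.20, adjusted p = 0.0470, limma), and over the alternatives its adjusted p ran from 0.0289 to 0.253. Condensin and chromosomal passenger genes had 12 tested and 0 called by limma (1 at an unadjusted p under 0.05), with a median of 0.049 that was -0.063 without edited replicate 1 and -0.069 with equal library totals. *NCAPG2*, a condensin II subunit, was at 26.5 and 20.0 against 42.4 and 56.0 (log2 fold change -1.05, adjusted p = 0.0539, limma), and *NCAPG* of condensin I was at 67.5 and 52.4 against 48.1 and 43.3 (0.37, adjusted p = 0.251, limma).

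The wider phase lists were set beside the members, which they leave out. In the G2/M phase list 48 of 49 genes were tested and 0 were called by limma. At an unadjusted p under 0.05 (limma) 8 of the 48 passed, beside 32.3% of all tested genes. The list had 31 positive genes and a median of 0.084, which turned to -0.026 without edited replicate 1, -0.035 with equal library totals and -0.077 with cyclic loess normalization. *LBR*, the lamin B receptor of the nuclear envelope, was at 133 and 118 in edited against 69.3 and 42.6 in wild-type cells (a log2 fold change of 1.19, adjusted p = 0.0595, limma). *ANP32E*, a histone chaperone, was at 206 and 179 against 120 and 122 (0.66, adjusted p = 0.0880, limma). In the S phase list 37 of 43 genes were tested (9 at an unadjusted p under 0.05, limma), with a median of 0.23 (0.11 without edited replicate 1 and 0.099 with cyclic loess normalization). *UHRF1*, which guides maintenance of DNA methylation at replication, was the 1 gene called. It rose by 0.93 on the log2 scale (standard error 0.19, adjusted p = 0.0469, limma), from 11.5 ± 0.717 in wild-type to 22.9 ± 0.584 in edited cells (SD, n = 2 each), and over the alternatives its adjusted p ran from 0.0385 to 0.234.

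Within each library, the mean log2(value + 1) of the members exceeded that of the G2/M phase list by 0.62 and 0.71 in edited and by 0.87 and 0.26 in wild-type replicates 1 and 2. Against the S phase list the excess was 1.36 and 1.37 in edited and 1.71 and 1.03 in wild-type replicates. The edited libraries fell between the wild-type ones in both measures. The G2/M phase list exceeded the S phase list by 0.75 and 0.66 in edited and by 0.84 and 0.77 in wild-type replicates. Here both edited libraries lay below both wild-type ones, which was described only and not tested. Wild-type replicates 1 and 2 differed by a median of 0.15 in the G2/M phase list and by -0.045 in the S phase list, against 0.70 for the members.

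**Figure D5:**
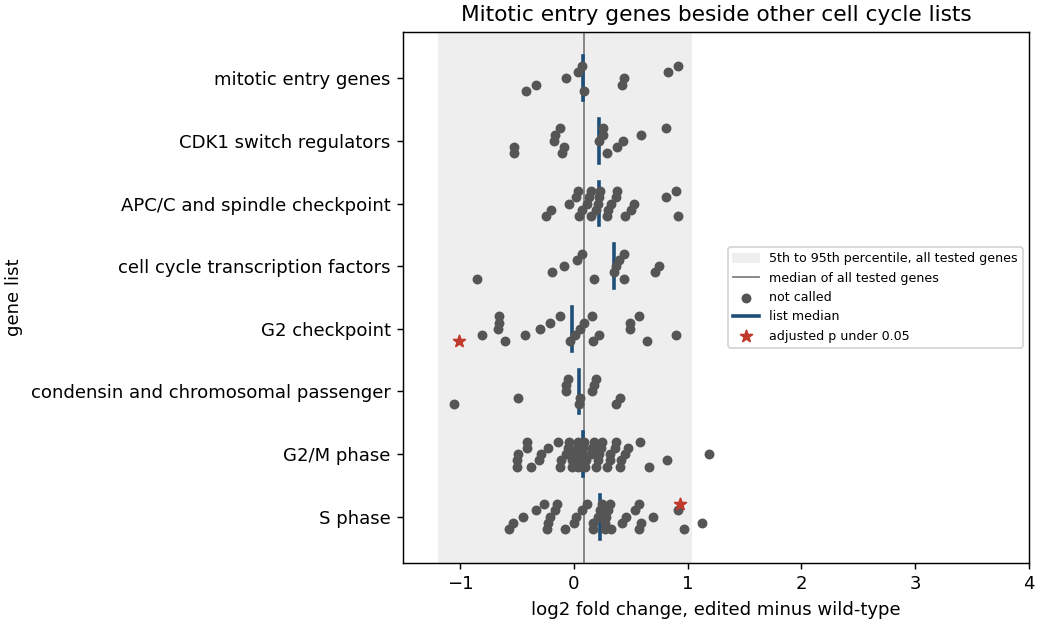
Log2 fold change (edited minus wild-type) of every tested gene in 8 lists, with list medians as blue bars, called genes as red stars, and the grey band holding all tested genes but the lowest 5% and highest 5% (-1.19 to 1.03). The 10 mitotic entry genes lie within the band, and *BTG2* and *UHRF1* are the called genes of these lists.

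The gene whose 4 centred log2 values lay nearest to the mean profile of the members was *UBE2C*, the ubiquitin-conjugating enzyme of the anaphase-promoting complex and a gene of 2 of the lists above, at a Euclidean distance of 0.0312 over the 4 libraries. It was at 337 and 303 in edited against 352 and 215 in wild-type cells. *BRF2*, *CAMTA1*, *MRPS2* and *ZFAND2A* came next, at distances of 0.0664 to 0.0803. Of the members themselves *CCNB2* lay nearest (0.185) and *CDC25B* farthest (0.931).

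Cell type markers also differed between these libraries. Of 12 mammary epithelial markers, 6 were called lower and 1 higher in edited cells, and their summed values were 4984 and 5793 in edited against 11428 and 20674 in wild-type cells. None of the 12 was listed at 0. The genes called lower with the largest changes were *ESRP1*, an epithelial splicing regulator, at 5.19 and 1.79 in edited against 262 and 229 in wild-type cells, *CDH1* (E-cadherin) at 3.89 and 1.54 against 150 and 123, and *GRHL2*, an epithelial transcription factor, at 0.137 and 0.0460 against 26.0 and 26.2. The gene called higher was the keratin *KRT8*, at 378 and 365 against 194 and 175 (log2 fold change 1.01, adjusted p = 0.0449, limma).

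Of 10 fibroblast markers 3 were analysed here, with 1 called by limma and 2 at an unadjusted p under 0.05. They went both ways, 2 positive and 1 negative, with log2 fold changes of -2.06 to 3.30. *COL1A1*, a chain of type I collagen, was called lower at 3.19 and 5.58 in edited against 15.6 and 28.1 in wild-type cells (-2.06, adjusted p = 0.0420, limma, and 0.00764 to 0.0906 over the alternatives). The sums of the 3 genes were 30.5 and 225 in edited and 78.0 and 52.3 in wild-type replicates, so the edited libraries lay on either side of both wild-type ones. Of 6 leukocyte markers 2 were analysed and 0 called by limma (0 at an unadjusted p under 0.05). *CD14* was at 8.98 and 9.28 in edited against 15.1 and 9.53 in wild-type cells, and *CD68* at 32.7 and 49.1 against 39.8 and 37.5. The part of these differences in the values of the mitotic entry genes was not tested.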

How the data were processed

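Poly(A) RNA was read from one end only (75 bases). The authors deposited 1 table of an expression signal normalized between libraries; their processing notes name HISAT2, Salmon and hg38 without versions or roles, and the normalization is not given in the sources used here. The deposited signal was taken as scaled for length: with the best step, 26.6% to 29.2% of low values of single-transcript genes were whole reads after multiplying by length (tolerance 0.05 of a read) and 14.3% to 20.0% without it, where the tolerance alone gives 10%. The 10% holds for a fixed step, while each best step was picked from many for the largest excess of whole reads. The searches with and without length also covered different ranges of steps and different numbers of genes. These shares do not settle the scaling. Whole reads were not recovered for nearly all genes, so no count test was run.

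Edited and wild-type groups were set against each other by limma 3.58.1 (R 4.3.3; lmFit, eBayes with trend, no block) on log2(value + 1) over 9590 genes with a mean of at least 10, called at an adjusted p under 0.05, and checked on simulated data. Positions and promoters are RefSeq on GRCh38.p14; 8478 of the 9590 tested genes had a position. Transcript lengths are GENCODE version 44.

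Members and lists were chosen with earlier results of these data known. All members were named, and from each list the genes called with the largest changes (up to 3 each way), or otherwise the 2 with the smallest p; the 5 genes nearest to the members' mean profile were also named. Alternatives in pseudocount, filter, scaling, block, variance model and threshold were run, as were fits without each library. With n = 2 a group, exact permutation cannot go below p = 0.333.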

Additional observations from a re-analysis of the deposited data

How the results depend on the processing

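In every alternative run, 0 of the 10 mitotic entry genes were called; their lowest adjusted p in any of them was 0.0672 (*CCNB1*, without edited replicate 2, limma). *CCNB1*, *CDC20*, *AURKA*, *PLK1* and *CDK1* kept their direction throughout. The sign turned with equal library totals for *CCNA2* (-0.024), *CCNB2* (-0.046) and *CDC25C* (-0.080), with quantile normalization for *CCNB2* (-0.058), and with cyclic loess for *CCNB2* (-0.13) and *CDC25C* (-0.027). With 1 library left out the range was -0.076 to 0.26 for *CCNA2*, -0.36 to 0.50 for *CCNB2*, -0.90 to 0.052 for *CDC25B*, -0.19 to 0.26 for *CDC25C* and -0.36 to 0.22 for *WEE1*. In each of the 7 pathway lists, 0 to 2 genes were called in the alternatives. Equal library totals moved the median of all genes by -0.12, and the members' median was then -0.035 beside -0.031 for all genes.

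Of all tested genes, 680 were called (277 higher, 403 lower), and with 1 library left out 4 to 1559. At a minimum mean of 50 it was 419 (228 higher, 191 lower), and 1 at an adjusted p under 0.001. With no filter 224 of 795 were higher. The replicate numbers share only a number in the labels: the deviations of same-numbered libraries correlated at -0.138 across genes. With the replicate block 133 genes (26 higher, 107 lower) and 0 members were called, and with the pairing crossed, which was added after seeing the data, 1002 genes and 0 members. The cause of these differences was not tested. Depth is estimated only (about 506 or more reads a member in each library), and 2 libraries a group limit the precision.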
